A study of Mus musculus with 8 samples.

Results

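The alternative activation genes comprise 8 transcripts used to describe mouse macrophages stimulated by type 2 cytokines or by interleukin-10: Arg1, Tgm2, Retnla, Chil3, Mgl2, Clec10a, Pparg and Il10. They were chosen by name among the 36708 gene rows of the deposited expression table, and all 8 were found. The name column gave 7 of them, and Retnla, whose cell in that column is empty, was found by its gene ID. Levels are given in TPM, a measure that divides reads by transcript length and scales each library to the same total. All 8 reached the mean of 1 TPM required for the test, which covered 11725 genes.

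The study measured RNA of macrophages sorted from mouse hearts after bone marrow transplantation (BMT), in 4 libraries with the genotype LOY (loss of the Y chromosome, LOY BMT) and 4 with the genotype control (control BMT). The treatment field reads control for all 8. Each library came from 6000 living CD45.2+ Ly6G- CD64+ RFP+ cells of the left ventricle, so the host's own cells without the red fluorescent protein were outside the gate. The labels used here give neither age, sex nor strain of the mice, nor how the Y chromosome was lost, nor whether a library is 1 animal, so p-values measure the spread between these libraries. Libraries are named by group and the number in their label.

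In alternative activation, interleukin-4 and interleukin-13 bind receptors that contain the interleukin-4 receptor alpha chain, Janus kinases phosphorylate STAT6, and STAT6 switches on effector genes such as Arg1, Retnla and Chil3 in mouse macrophages. Peroxisome proliferator-activated receptor gamma (Pparg) works beside STAT6 and sustains the lipid metabolism of these cells, while interleukin-10 signals through STAT3 and restrains inflammatory genes. In the heart such macrophages are known for debris clearance and for signals to fibroblasts during repair.

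The labels were first checked against the Y chromosome. The summed level of Ddx3y, Eif2s3y, Kdm5d and Uty, genes carried by the Y chromosome, was 2.77, 46.4, 1.49 and 2.12 TPM in LOY libraries 1 to 4, against 104, 95.2, 80.8 and 109 TPM in control libraries 1 to 4. The library labelled LOY 2 thus held 47.7% of the control mean, and the other 3 LOY libraries at most 2.85%. Results for the 8 genes, and calls that rest on it, are therefore also given without the library labelled LOY 2. The cell type label was met by macrophage markers (Fcgr1, Mertk, Adgre1, Csf1r, C1qa, C1qb, C1qc and Cd68), all 8 detected. Their summed level was 22073 to 28636 TPM in LOY libraries and 25021 to 26744 TPM in control libraries, mostly C1qa, C1qb and C1qc. Mertk was at 35.5 to 73.3 TPM in LOY libraries and 12.1 to 32.1 TPM in control libraries, without overlap. LOY values all above the control values were found for 6.76% of all genes tested. Csf1r was at 1278 to 1557 TPM in LOY libraries and 509 to 1374 TPM in control libraries. Of the 8, 3 had a log2 fold change above 0 and 5 below. Mertk and Csf1r were higher at an unadjusted limma p under 0.05, beside 19.3% of all genes, and 0 of the 8 passed after adjustment. In the authors' deposited table the adjusted p was 0.00632 for Mertk and 0.0795 for Csf1r. Libraries held 11396 to 12139 genes at 1 TPM or more. Across all 11725 genes the median log2 fold change was 0.16, so log2 fold changes near 0.16 lie at the middle of these data.

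None of the 8 genes passed the test between LOY and control libraries after adjustment over all genes, and the values of the groups overlapped for each of the 8. In limma, a linear model on log2(TPM + 1) with Benjamini-Hochberg adjustment, 0% of the 11725 genes passed an adjusted p of 0.05 and the smallest adjusted p of any gene was 0.148. At an unadjusted p under 0.05, 1 of the 8 genes passed (Mgl2, lower in LOY libraries), beside 22.7% of all genes in either direction, 19.3% higher and 3.45% lower. Under median-of-ratios scaling, which moved the median log2 fold change of all genes to 0.00, 2 of the 8 were lower at that threshold (Mgl2 and Pparg), beside 11% of all genes, and 0 higher. The 2262 higher and 405 lower calls over all genes then became 1272 higher and 1293 lower. Groups without overlap were found for 0 of the 8 and for 9.37% of all genes. In the authors' deposited table, 0 of the 8 had an adjusted p under 0.05, beside 3.94% of the 16073 genes with an adjusted p there. The fold change was below 0 for 6 of the 8 genes, and their median log2 fold change was -0.22, against 0.16 over all genes (-0.40 against 0.00 under median-of-ratios scaling).

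**Figure D1:**
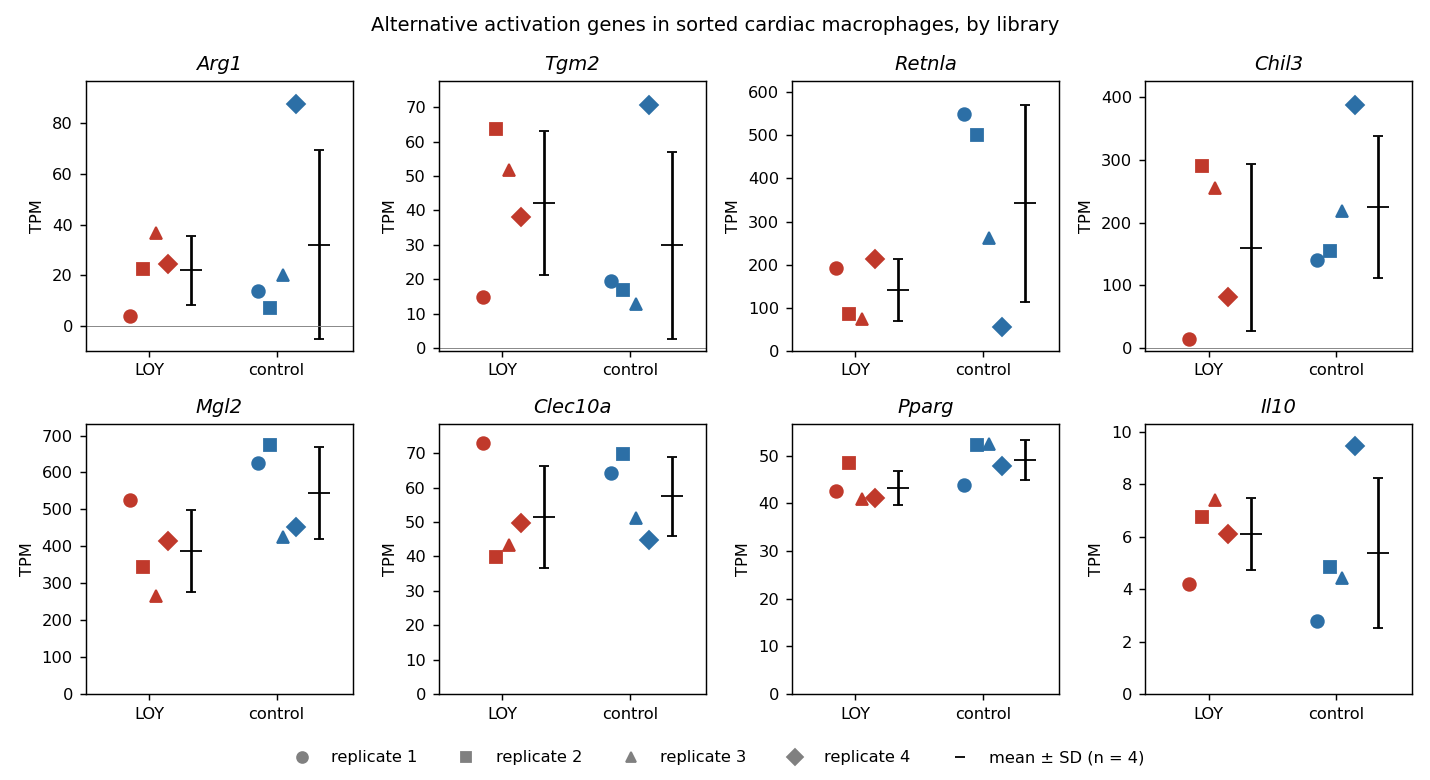
TPM (linear axis) of the 8 alternative activation genes in 4 LOY libraries (red) and 4 control libraries (blue), with marker shapes for replicate numbers and black bars for the mean ± SD (n = 4). The groups overlap in all 8 panels, and control 4 (blue diamond) is highest for Arg1 at 87.5 TPM and lowest for Retnla at 56.1 TPM.

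Levels differed widely between the 8 genes. Mgl2 had the highest mean over the 8 libraries, 466 TPM, and ranked first in 8 of 8 libraries. Retnla averaged 241 TPM and Chil3 192 TPM. Clec10a (54.4 TPM), Pparg (46.2 TPM), Tgm2 (36.0 TPM) and Arg1 (27.0 TPM) formed the middle of the order. Il10 was last at 5.74 TPM and had the lowest level of the 8 in 7 of 8 libraries, Arg1 being lower in LOY 1. The ranges of every pair of neighbours in this order overlapped, and only the step between Mgl2 and Retnla kept its direction in all 8 libraries.

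Arg1 and Tgm2 encode enzymes. Arg1 (arginase 1, chromosome 10, 24915221 to 24927484, GRCm38) turns arginine into ornithine and urea and so draws the amino acid away from nitric oxide synthesis. It stood at 3.76, 22.5, 36.8 and 24.6 TPM in LOY libraries 1 to 4, against 13.7, 7.21, 20.0 and 87.5 TPM in control libraries 1 to 4. Control 4 lay far above every other library, LOY 1 was the lowest, and LOY 2, 3 and 4 were above controls 1, 2 and 3. LOY libraries averaged 21.9 ± 13.6 TPM and control libraries 32.1 ± 37.3 TPM (SD, n = 4 each), with a log2 fold change of -0.26 ± 0.77 (SE, 95% interval -1.98 to 1.46, adjusted p = 0.85). Its sign turned with a single library: the log2 fold change was 0.41 without control 4 and 0.38 without LOY 1.

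Tgm2 (transglutaminase 2, chromosome 2, 158116402 to 158146436) cross-links proteins and is a marker of alternative activation shared by mouse and human macrophages. Its level was 15.0, 63.7, 51.6 and 38.0 TPM in LOY libraries 1 to 4, against 19.4, 16.8, 12.8 and 70.5 TPM in control libraries 1 to 4. LOY 2, 3 and 4 were above controls 1, 2 and 3, while LOY 1 was among the low libraries and control 4 was the highest of all. LOY libraries averaged 42.1 ± 20.9 TPM and control libraries 29.9 ± 27.2 TPM (SD, n = 4 each; limma log2 fold change 0.64 ± 0.54 SE, 95% interval -0.57 to 1.85, adjusted p = 0.471). The log2 fold change was 1.16 without control 4, where its unadjusted limma p was 0.0215 and its adjusted p 0.221, and it was 1.06 without LOY 1 and 0.37 without control 3.

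Retnla and Chil3 encode secreted proteins. Retnla (resistin-like alpha, also called FIZZ1 or RELM-alpha, chromosome 16, 48842551 to 48844461) is a small cysteine-rich protein induced by interleukin-4 in mouse macrophages. It stood at 191, 85.5, 72.6 and 213 TPM in LOY libraries 1 to 4, against 549, 502, 261 and 56.1 TPM in control libraries 1 to 4. Controls 1, 2 and 3 were the 3 highest libraries, and control 4 was below every LOY library. LOY libraries averaged 140.5 ± 71.7 TPM and control libraries 342 ± 229 TPM (SD, n = 4 each), a log2 fold change of -0.997 ± 0.67 (SE, 95% interval -2.48 to 0.49, adjusted p = 0.367). The exact two-sided permutation test of the TPM means gave p = 0.171, where the smallest p that the 70 assignments allow is 0.0286. Single control libraries moved this value, to -1.71 without control 4 (limma unadjusted p = 0.00237, adjusted p = 0.22), to -0.62 without control 1 and to -0.67 without control 2. In the authors' deposited table the log2 fold change of Retnla was -1.25 (adjusted p = 0.27).

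Chil3 (chitinase-like 3, also called Ym1, chromosome 3, 106147554 to 106167564) is a secreted lectin that lacks chitinase activity and is made by alternatively activated macrophages and also by classical monocytes. Its level was 14.6, 289, 254 and 81.6 TPM in LOY libraries 1 to 4, against 140, 155, 218 and 386 TPM in control libraries 1 to 4. LOY 1 and LOY 4 were the lowest libraries and control 4 the highest, with LOY 2 and LOY 3 above controls 1, 2 and 3. LOY libraries averaged 160 ± 133 TPM and control libraries 225 ± 113 TPM (SD, n = 4 each), with a log2 fold change of -1.07 ± 0.80 (SE, 95% interval -2.86 to 0.72, adjusted p = 0.418). Without LOY 1 it was -0.19, and without LOY 2 -1.59. The highest library exceeded the lowest 26.5-fold for Chil3 and 23.3-fold for Arg1, the widest ranges of the 8 genes. Of the 1490 windows of 50 bases in the longest Chil3 transcript, 275 (18.5%) also occur in Chil4, a near-identical neighbour listed at 0.224 TPM or less, so reads could be divided between them.

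The other surface and regulatory genes varied less. Mgl2 (macrophage galactose-type lectin 2, CD301b, chromosome 11, 70130329 to 70137550) binds sugar chains ending in galactose or N-acetylgalactosamine and marks interleukin-4-treated macrophages and a subset of dendritic cells. It had 526, 344, 264 and 414 TPM in LOY libraries 1 to 4, against 627, 675, 424 and 453 TPM in control libraries 1 to 4. Controls 1 and 2 were the highest libraries and LOY 4, 2 and 3 the lowest, and LOY 1 alone exceeded any control library, namely controls 3 and 4. LOY libraries averaged 387 ± 111 TPM and control libraries 545 ± 125 TPM (SD, n = 4 each), a ratio of 0.711. The log2 fold change was -0.51 ± 0.23 (SE, 95% interval -1.01 to -0.01, adjusted p = 0.217), and the exact permutation test gave p = 0.114. Mgl2 was the only one of the 8 genes with an unadjusted limma p under 0.05 (0.0476). That unadjusted call was lost without LOY 2, LOY 3, LOY 4, control 1 or control 2, and with a trend in transcript length and GC content taken out (log2 fold change -0.45). It passed the adjusted threshold in 1 of 19 alternative settings, in which libraries were weighted by their quality (log2 fold change -0.72, limma adjusted p = 0.0201) and in which 3103 genes of all passed.

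Clec10a (macrophage galactose-type lectin 1, CD301a, chromosome 11, 70156197 to 70170834) is the neighbouring gene of the same lectin pair. It had 72.9, 39.7, 43.2 and 49.8 TPM in LOY libraries 1 to 4, against 64.2, 69.8, 51.1 and 44.6 TPM in control libraries 1 to 4. LOY 1 was the highest library and LOY 2 the lowest, so the LOY values enclosed those of the control libraries. LOY libraries averaged 51.4 ± 14.9 TPM and control libraries 57.4 ± 11.6 TPM (SD, n = 4 each; limma log2 fold change -0.18 ± 0.21 SE, 95% interval -0.63 to 0.28, adjusted p = 0.618). The ratio of Mgl2 to Clec10a was 7.22, 8.67, 6.11 and 8.32 in LOY libraries 1 to 4, against 9.76, 9.67, 8.30 and 10.1 in control libraries 1 to 4. The highest ratios were those of controls 4, 1 and 2, and control 3 lay within the LOY values (exact permutation p = 0.0857). The longest Mgl2 transcript shares 242 of 1586 windows of 50 bases (15.3%) with Clec10a, so the counting could divide some reads between the pair.

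Pparg (chromosome 6, 115360951 to 115490399), the nuclear receptor of fatty acid ligands, was the steadiest of the 8 genes. It had 42.7, 48.4, 40.8 and 41.2 TPM in LOY libraries 1 to 4, against 43.8, 52.3, 52.5 and 47.8 TPM in control libraries 1 to 4. Controls 3 and 2 were the highest libraries and LOY 1, 4 and 3 the lowest, with LOY 2 above controls 1 and 4. LOY libraries averaged 43.3 ± 3.54 TPM and control libraries 49.1 ± 4.12 TPM (SD, n = 4 each; limma log2 fold change -0.18 ± 0.12 SE, 95% interval -0.43 to 0.08, adjusted p = 0.349, exact permutation p = 0.0857). Its highest library exceeded its lowest 1.29-fold.

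Il10 (chromosome 1, 131019845 to 131024974), the gene of the anti-inflammatory cytokine interleukin-10, was the lowest member. It had 4.18, 6.74, 7.38 and 6.09 TPM in LOY libraries 1 to 4, against 2.77, 4.85, 4.43 and 9.46 TPM in control libraries 1 to 4. Control 4 was the highest library and control 1 the lowest, so the control values enclosed those of the LOY libraries. LOY libraries averaged 6.10 ± 1.38 TPM and control libraries 5.38 ± 2.86 TPM (SD, n = 4 each; limma log2 fold change 0.23 ± 0.29 SE, 95% interval -0.42 to 0.89, adjusted p = 0.645). It was 0.01 without control 1 and 0.50 without control 4, and under quantile scaling its sign turned (-0.02).

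Leaving out the library labelled LOY 2 turned no sign among the 8 genes. The log2 fold changes without it were -0.39 for Arg1, 0.39 for Tgm2, -0.81 for Retnla and -1.59 for Chil3. They were -0.47 for Mgl2, -0.07 for Clec10a, -0.23 for Pparg and 0.18 for Il10, and none of the 8 had an unadjusted limma p under 0.05.

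**Figure D2:**
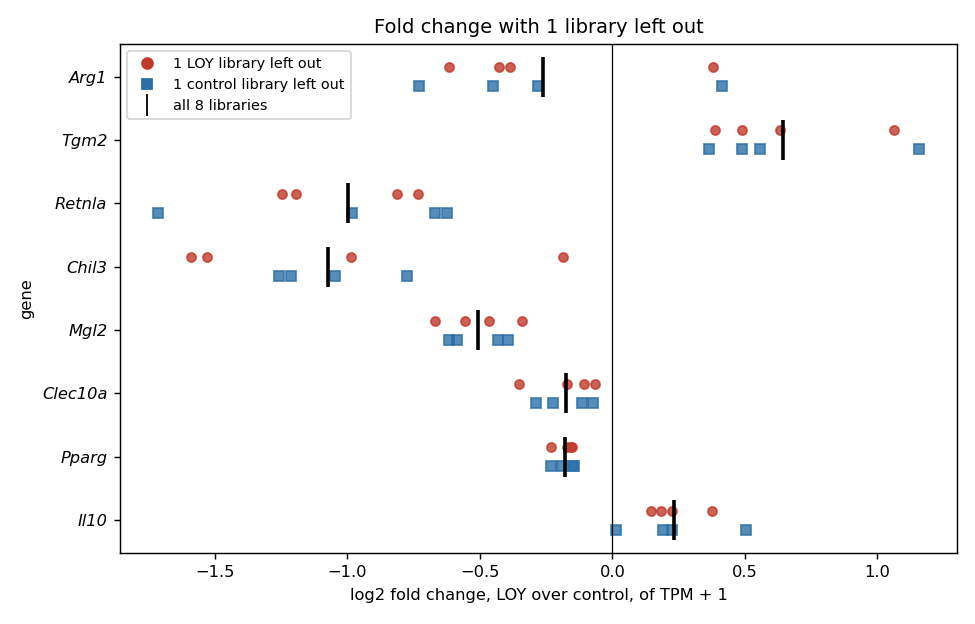
Log2 fold change (LOY over control, of TPM + 1) of each gene with all 8 libraries (black bar), with 1 LOY library left out (red circles) and with 1 control library left out (blue squares). Arg1 alone has points on both sides of 0 (-0.73 to 0.41). The points of Mgl2 (-0.67 to -0.34), Retnla (-1.71 to -0.62), Chil3 (-1.591 to -0.185), Clec10a (-0.353 to -0.067) and Pparg (-0.232 to -0.145) are all below 0. Those of Tgm2 (0.366 to 1.158) and Il10 (0.014 to 0.504) are all above 0.

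Retnla, Chil3 and Mgl2 are shown with the sequence upstream of their start, because a binding site for STAT6, the factor of the interleukin-4 pathway, would be sought there. RefSeq windows (GRCm38.p6, 250 bases before to 50 after the start) were matched for 4 of the 8 genes, these 3 and Pparg. Each line gives bases 250 to 61 before the start, read 5′ to 3′ on the gene's strand, for Retnla at chr16:48842359-48842548 (plus strand), Chil3 at chr3:106167625-106167814 (minus strand) and Mgl2 at chr11:70130107-70130296 (plus strand). Capitals mark matches to 3 searched motifs, TTCNNNNGAA (STAT6-type), TTCNNNGAA (general STAT) and TTGCNNAA (C/EBP-type), each sought on both strands.
Retnla: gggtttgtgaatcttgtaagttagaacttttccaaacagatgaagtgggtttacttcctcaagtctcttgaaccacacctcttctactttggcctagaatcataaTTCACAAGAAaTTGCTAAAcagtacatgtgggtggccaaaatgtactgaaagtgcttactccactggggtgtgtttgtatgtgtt
Chil3: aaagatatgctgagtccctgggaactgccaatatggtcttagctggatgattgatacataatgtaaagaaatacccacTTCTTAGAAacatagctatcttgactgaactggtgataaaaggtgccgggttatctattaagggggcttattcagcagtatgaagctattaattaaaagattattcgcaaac
Mgl2: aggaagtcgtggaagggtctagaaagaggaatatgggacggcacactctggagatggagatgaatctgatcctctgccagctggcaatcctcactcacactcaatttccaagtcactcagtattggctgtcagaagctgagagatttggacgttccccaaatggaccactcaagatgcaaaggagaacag
Retnla held the STAT6-type motif at -145 to -136 and the C/EBP-type motif at -134 to -127, side by side with no overlap. The STAT6-type motif occurs in 6.95% of the 32851 RefSeq windows of 300 bases, and the C/EBP-type motif in 10.8%. Chil3 held the general STAT motif at -172 to -164, which 8.3% of windows hold, and Mgl2 held none of the 3 in its window. The window of Pparg, not printed here, held the C/EBP-type motif at -215 to -208 and at -16 to -9. A match describes these letters alone and is no evidence of binding.

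The 8 genes did not vary as 1 block across libraries. Arg1, Chil3, Tgm2 and Il10 all reached their highest level in control 4, the library with the lowest Retnla, and were lowest or next to lowest in LOY 1. Retnla, Mgl2 and Clec10a formed the opposite set, with low values in LOY 2, LOY 3 and, for Retnla and Clec10a, control 4. The sum over the 8 genes was 870, 900, 771 and 868 TPM in LOY libraries 1 to 4, against 1460, 1483, 1045 and 1155 TPM in control libraries 1 to 4. The LOY sums were the 4 lowest, although the groups overlapped for each single gene. For single genes, 2.61% of all had LOY values all below the control values. No such share was taken over sums of 8 genes, so how often a sum separates is not known here. Mgl2 was the largest part of each sum, with Chil3 next in LOY 2, LOY 3 and control 4, and Retnla next in the other libraries.

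**Figure D3:**
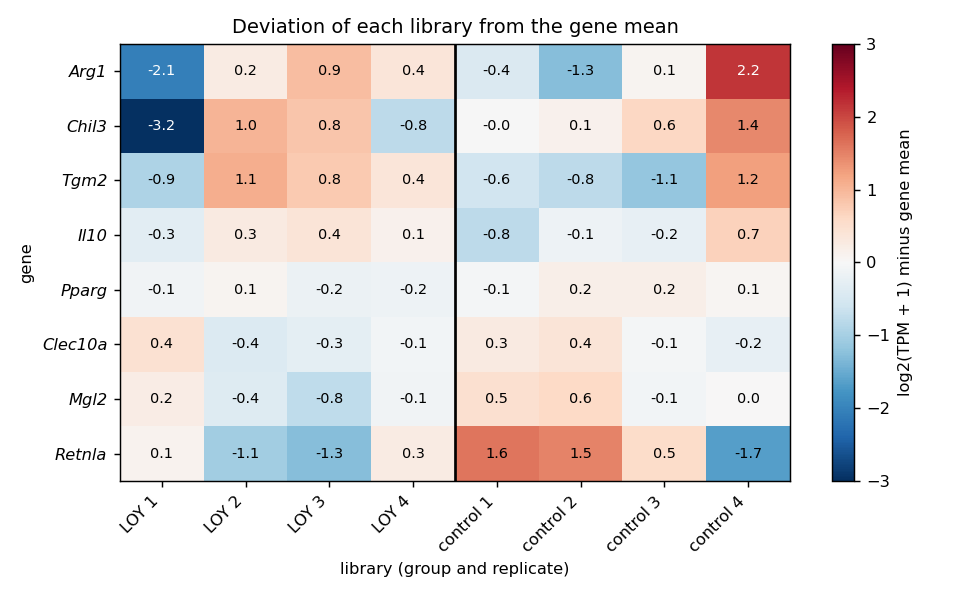
Deviation of each library from the mean of its gene, in log2(TPM + 1), for the 8 genes (rows) in LOY libraries 1 to 4 (left of the line) and control libraries 1 to 4 (right). The upper 4 genes are high in control 4, where Retnla in the bottom row is low, and Chil3 in LOY 1 is the largest deviation.

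Summed monocyte marker RNA ran with Arg1, Chil3, Tgm2 and Il10 and against Retnla, Mgl2 and Clec10a. In bulk libraries fewer cells of a type and less RNA per cell cannot be told apart. The summed level of 8 monocyte markers (Ly6c2, Ccr2, Plac8, Vcan, S100a4, Nr4a1, Ace and Hp) was 582, 3061, 3335 and 1502 TPM in LOY libraries 1 to 4, against 1408, 1412, 1758 and 3563 TPM in control libraries 1 to 4. The 3 libraries with the most were thus control 4, LOY 3 and LOY 2, and LOY 1 had the least. Ly6c2, Ccr2, Plac8 and S100a4 made up most of the sum. Nr4a1 did not follow it, at 19.7 TPM in control 4, 20.1 in LOY 2, 47.0 in LOY 3 and 53.7 in LOY 1. Ace stayed at 0.197 to 1.41 TPM. Of the monocyte list including Chil3, 8 of 9 markers were tested and 0 had an unadjusted limma p under 0.05, beside 22.7% of all genes.

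Chil3 followed this sum (Pearson r = 0.927 on log2 values, Spearman rho = 0.905, n = 8 libraries), with r = 0.777 when LOY 1 and control 4, the libraries farthest from the median, were left out. Arg1 did so with r = 0.884 and rho = 0.905, and r = 0.706 without those libraries. Clec10a ran against it with r = -0.878 and rho = -0.857, and r = -0.857 without them. For Retnla r was -0.652 and rho -0.738, and r was -0.943 without them. Pparg showed little relation, with r = 0.145 and rho = 0.024. These coefficients are descriptions without a test, since the points share the same libraries and TPM of 1 library are parts of 1 total. The part of monocyte RNA in the differences between LOY and control libraries was not tested.

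**Figure D4:**
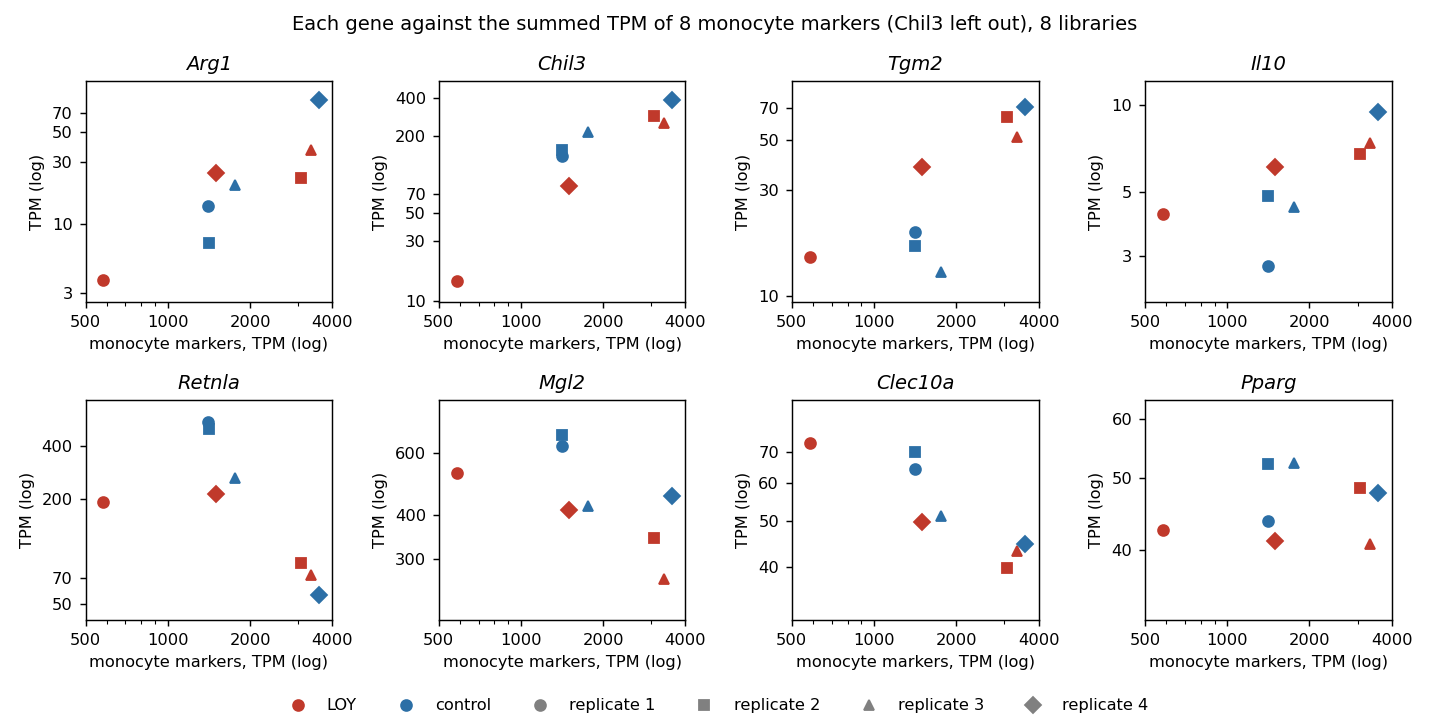
TPM of each of the 8 genes (log axis) against the summed TPM of 8 monocyte markers without Chil3 (log axis) in 4 LOY libraries (red) and 4 control libraries (blue), with marker shapes for replicate numbers. Arg1, Chil3, Tgm2 and Il10 (upper row) are highest in control 4, at the right end (3563 TPM), and Retnla and Clec10a have their 3 lowest values in the 3 libraries with the most monocyte marker RNA.

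Markers of other cell types summed to less than the monocyte markers in every library. A sum of marker RNA gives no share of cells, and which cells carried the 8 genes was not tested. Dendritic cell markers, 10 genes of which 7 were tested, summed to 63.6 to 143 TPM in LOY libraries and 69.6 to 119 TPM in control libraries. Markers of eosinophils, basophils and mast cells summed to 1.78 to 2.92 TPM in LOY libraries and 1.85 to 2.89 TPM in control libraries, and 3 of the 8 (Epx, Mcpt4 and Fcer1a) were listed at 0 in every library. B cell markers, mostly Cd79b, summed to 39.6 to 46.6 TPM in LOY libraries and 51.5 to 77.1 TPM in control libraries. Endothelial markers summed to 30.3 to 43.7 TPM in LOY libraries and 31.2 to 33.7 TPM in control libraries. Neutrophil markers summed to 86.7 to 108 TPM in LOY libraries and 44.8 to 89.6 TPM in control libraries. Most of this was Csf3r, at 82.9 to 97.0 TPM in LOY libraries and 41.9 to 72.2 TPM in control libraries. Of the 5 neutrophil markers tested, 2 (Csf3r and Mmp9) had a log2 fold change above 0 and 3 (S100a8, S100a9 and Mmp8) below. The highest level was 5.42 TPM for S100a8 and 6.17 TPM for S100a9, both in control 4, and 0.197 TPM for Ly6g.

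Upstream of the effectors, genes of the interleukin-4 and interleukin-13 pathway had a median fold change above that of all genes, with none past the adjusted threshold. Of 18 listed genes, 16 were tested, 12 had a log2 fold change above 0, and 7 were higher in LOY libraries at an unadjusted limma p under 0.05 with 0 lower, beside 19.3% of all genes higher. Their median log2 fold change was 0.34, against 0.16 over all genes. Once a trend with transcript length and GC content was taken out, the median was 0.13, against -0.01 over all genes, and 5 were higher at an unadjusted p under 0.05, beside 7.55% of all genes.

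Il4ra, the receptor chain shared by interleukin-4 and interleukin-13, stood at 120, 148, 127 and 142 TPM in LOY libraries 1 to 4, against 106, 60.5, 40.7 and 106 TPM in control libraries 1 to 4. Every LOY library was above every control library, as for 6.76% of all genes (limma log2 fold change 0.87 ± 0.28 SE, adjusted p = 0.181). Stat6, the transcription factor of the pathway, had 174, 193, 167 and 185 TPM in LOY libraries 1 to 4, against 161, 85.0, 66.4 and 121 TPM in control libraries 1 to 4. Again no value overlapped, and control 1 came within a few TPM of LOY 3 (limma log2 fold change 0.80 ± 0.23 SE, adjusted p = 0.179). In the authors' deposited table the adjusted p was 0.0777 for Il4ra and 0.0474 for Stat6.

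Rxra, the retinoid X receptor alpha that pairs with Pparg on DNA, was at 8.29, 8.40, 8.45 and 16.8 TPM in LOY libraries 1 to 4, against 8.58, 2.74, 1.93 and 2.69 TPM in control libraries 1 to 4. Control 1 lay among the LOY values and the other 3 controls far below them (limma log2 fold change 1.31 ± 0.37 SE, adjusted p = 0.179). The adjusted p of Rxra in the authors' deposited table was 0.0111. The ligands were scarce: Il4 was at 0.123 to 1.01 TPM in LOY libraries and 0.195 to 0.600 TPM in control libraries, and Il13 was listed at 0 in every library.

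The interleukin-10 pathway gave 9 tested genes, all 9 with a log2 fold change above 0 and 4 higher at an unadjusted limma p under 0.05, beside 68.2% of all genes above 0 and 19.3% higher. Their median log2 fold change was 0.44, against 0.16 over all genes. The kinase genes Jak1 and Tyk2 belong to both lists. Stat3, the factor through which interleukin-10 acts, had 156, 149, 128 and 144 TPM in LOY libraries 1 to 4, against 128, 85.0, 75.9 and 106 TPM in control libraries 1 to 4. LOY 3 and control 1 met at the boundary and the other LOY libraries were above all controls (limma log2 fold change 0.57 ± 0.16 SE, adjusted p = 0.179). Il10ra, the ligand-binding receptor chain, had 246, 281, 246 and 297 TPM in LOY libraries 1 to 4, against 255, 185, 116 and 202 TPM in control libraries 1 to 4. Control 1 lay above LOY 1 and LOY 3 (limma log2 fold change 0.55 ± 0.21 SE, adjusted p = 0.186). With the same trend in length and GC taken out, the median of the 9 genes was 0.14, against -0.01 over all genes, and 1 gene (Jak1) was higher at an unadjusted p under 0.05, beside 7.55% of all genes. For Stat3 the adjusted p in the authors' deposited table was 0.0542, for Jak1 0.0518 and for Il10ra 0.144.

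These unadjusted calls depended on the length and GC trend for some genes. With the trend taken out, the log2 fold change was 0.14 for Stat3 and 0.27 for Il10ra (adjusted p = 0.552 and 0.382 by limma), neither past the unadjusted threshold. Stat6 at 0.49, Rxra at 0.87, Il4ra at 0.425 and Jak1 at 0.30 stayed past the unadjusted threshold, though not the adjusted one. Without the library labelled LOY 2, Il10ra lost its unadjusted call (log2 fold change 0.52), as it did without LOY 4 (0.49) and without control 3 (0.33), and the other 5 kept theirs when any 1 library was left out.

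Control 1 stood nearest to the LOY libraries among the controls in these signalling genes, and leaving it out moved their calls. Without control 1, 7 of the 16 interleukin-4 and interleukin-13 genes and 4 of the 9 interleukin-10 genes passed the adjusted threshold, all higher in LOY libraries, beside 14.9% of all genes. The limma adjusted p was then 0.011 for Rxra, 0.0129 for Stat6, 0.0303 for Il4ra, 0.0164 for Stat3, 0.0202 for Jak1 and 0.0371 for Il10ra. Control 1 was the highest control for each of these genes, so leaving it out widens their differences by construction. With any other single library left out, the limma adjusted p was 0.139 to 0.402 for Rxra and for Stat6. None of the 8 alternative activation genes passed without control 1, and their median was -0.33, against 0.20 over all genes.

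**Figure D5:**
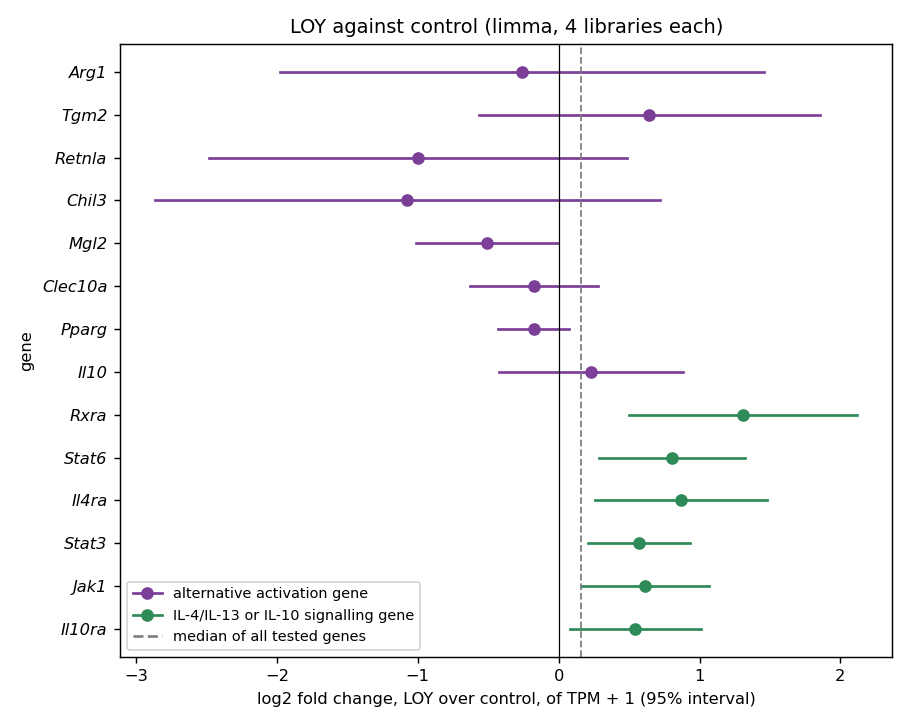
Log2 fold change (LOY over control, of TPM + 1) with its 95% interval from limma for the 8 alternative activation genes (purple) and 6 signalling genes of the interleukin-4, interleukin-13 and interleukin-10 pathways (green), with the median of all tested genes as a dashed line at 0.16. The 6 green genes are the 3 of each pathway list with the smallest limma p, so that choice sets their distance from 0, and 4 of the 16 tested interleukin-4 and interleukin-13 genes lie below 0. Of the 8 purple points, 6 lie left of 0.

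Further markers of alternative activation had a median near that of all genes. Of 20 listed, 16 were tested, and 0 had an unadjusted limma p under 0.05, beside 22.7% of all genes. Their median log2 fold change was 0.22, against 0.16 over all genes. Mrc1, the mannose receptor CD206, was at 275, 188, 144 and 226 TPM in LOY libraries 1 to 4, against 205, 154, 85.6 and 117 TPM in control libraries 1 to 4. LOY 1 and 4 were above all controls, and LOY 2 and 3 lay among them (limma log2 fold change 0.60 ± 0.27 SE, adjusted p = 0.221). Vegfa, the vascular growth factor, had a log2 fold change of 0.65 (SE 0.34) and Egr2, a transcription factor induced by interleukin-4, of 0.26 (SE 0.17), neither past the unadjusted threshold. At an unadjusted limma p under 0.05, Vegfa passed without LOY 1 (log2 fold change 1.03), Egr2 without LOY 2 (0.39) and Mrc1 without LOY 3 (0.76) or without control 1 (0.80), none of them past the adjusted threshold.

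Around Arg1, arginine and polyamine genes had a median below that of all genes. Of 11 listed, 9 were tested with a median log2 fold change of 0.05, against 0.16 over all genes. Of these 9, 0 had an unadjusted limma p under 0.05, beside 22.7% of all genes. The log2 fold change was -0.23 (SE 0.12) for Srm, spermidine synthase, which passed the unadjusted threshold under median-of-ratios scaling (-0.41) and without LOY 1 (-0.285). It was 0.15 (SE 0.14) for Sms, spermine synthase, whose sign turned under both other scalings. Arg2, the mitochondrial arginase, was at 0.392 to 2.89 TPM in LOY libraries and 0.104 to 1.48 TPM in control libraries. Nos2, the inducible nitric oxide synthase that competes with arginase for arginine, was at 0.268 to 0.528 TPM in LOY libraries and 0.0692 to 0.598 TPM in control libraries, below the level needed for the test.

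Of 10 listed genes of classical activation, 7 were tested, with a median log2 fold change of 0.10, against 0.16 over all genes. Of these 7, 0 had an unadjusted limma p under 0.05, beside 22.7% of all genes. The costimulatory gene Cd86 had a log2 fold change of 0.24 (SE 0.13), and of 0.34 without LOY 3, where it passed the unadjusted threshold. The log2 fold change of the interferon-induced chemokine Cxcl9 was -0.44 (SE 0.32) and that of the transcription factor Irf5 0.16 (SE 0.15), -0.02 under median-of-ratios scaling. Without control 1, Cxcl9 was lower in LOY libraries with a limma adjusted p of 0.0472, beside 0.537% of all genes.

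Targets of Pparg had a median below that of all genes. Of 10 listed, 9 were tested, 2 were higher and 1 lower in LOY libraries at an unadjusted limma p under 0.05, beside 19.3% of all genes higher and 3.45% lower. Their median log2 fold change was -0.02, against 0.16 over all genes. Cpt1a, the gate of fatty acids into mitochondria, had 51.3, 56.1, 43.1 and 52.0 TPM in LOY libraries 1 to 4, against 44.3, 27.2, 20.0 and 35.5 TPM in control libraries 1 to 4 (limma log2 fold change 0.71 ± 0.22 SE, adjusted p = 0.179). LOY 3 was the only LOY library below a control, control 1. Abcg1, a cholesterol exporter, had a difference of 0.59 ± 0.20 on the log2 scale (SE, limma adjusted p = 0.181), and of 0.16 with the length and GC trend taken out, where its unadjusted call was lost. Cpt1a (0.38) and Lpl (-0.68) kept theirs in that setting. Lpl, lipoprotein lipase, had 194, 204, 223 and 203 TPM in LOY libraries 1 to 4, against 240, 410, 253 and 251 TPM in control libraries 1 to 4. Every LOY library was below every control library for Lpl (limma log2 fold change -0.45 ± 0.17 SE, adjusted p = 0.184), beside 2.61% of all genes with lower groups that did not overlap. Its log2 fold change was -0.27 without control 2.

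The related genes of the same families were mostly silent. Of 15 listed, 6 reached the mean of 1 TPM (Arg2, Chil1, Tgm1, F13a1, Ppard and Asgr2). Of these 6, 0 had an unadjusted limma p under 0.05, beside 22.7% of all genes. The resistin relatives Retnlb, Retnlg and Retn, the chitinase relatives Chil4, Chia1 and Chit1, and Tgm3, Ppara and Asgr1 stayed below that mean. Retnlb, Chia1 and Chit1 were listed at 0 in every library. F13a1, coagulation factor XIII A, was the most abundant, with 833, 283, 212 and 297 TPM in LOY libraries 1 to 4, against 425, 278, 129 and 191 TPM in control libraries 1 to 4. LOY 1 was the highest library and control 3 the lowest (limma log2 fold change 0.59 ± 0.44 SE, adjusted p = 0.421). The related receptor Ppard had a difference of 0.00 (SE 0.20) on the log2 scale, and its sign turned in 10 settings.

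The genes most like each member over the 8 libraries, by Pearson r of log2(TPM + 1) among 8712 genes averaging 5 TPM or more, were mostly not genes of the lists above. For Arg1 they were Socs2 (r = 0.981) and Spint1 (0.955), and for Chil3 Il18 (0.988) and Pno1 (0.986). For Tgm2 they were Gk (0.989) and Plbd1 (0.987), and for Il10 Car13 (0.971) and Wdr70 (0.955). For Retnla they were Cd302 (0.940) and Serpinf1 (0.928), for Mgl2 Fam50a (0.973) and Tbpl1 (0.954), and for Clec10a Klf2 (0.984) and Fxyd2 (0.982). For Pparg they were Ppp2r3c (0.955) and Emc7 (0.947). Klf2, a Krüppel-like transcription factor, was at 126, 42.5, 48.1 and 71.0 TPM in LOY libraries 1 to 4, against 111, 137, 58.5 and 49.5 TPM in control libraries 1 to 4, high in LOY 1 and controls 1 and 2 like Clec10a. These values rank likeness over 8 shared libraries, were the highest of many, and carry no test.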

How the data were processed

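RNA of sorted heart macrophages was measured in 4 LOY and 4 control libraries. Per the labels' protocols, cDNA came from the SMART-Seq v4 kit and libraries from Nextera XT, which keeps no strand. The submitters' processing notes list the builds mm10 and GRCm38, Subread 1.5.2 with featureCounts, STAR 2.5.2b, bcl2fastq 2.17 and Trimmomatic 0.36. Which of them gave the TPM is not stated there. The authors deposited TPM per gene and library, with headers ending in TPM_sum. Every column sums to 1000000, so the depth of single libraries is unknown and no counting interval is given. The authors' deposited comparison holds a log2 fold change, a score (fold change over its error), a p-value, an adjusted p-value and a baseMean signal whose scaling is not given. All 36708 baseMean values were multiples of one eighth (tolerance 1e-06), with 184.5 for Il10 as the lowest of the 8 genes and 16094.4 for Mgl2 as the highest. Columns headed KO and WT, with numbers, were taken as LOY and control with the labels' numbers from their names alone.

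Genes were matched by ID to GENCODE release M21 on GRCm38 (35868 of 36708 IDs named). Genes averaging 1 TPM or more were kept (11881) and 156 that repeated another ID's values were removed, which left 11725. limma 3.58.1, under R 4.3.3 with its trend and robust settings, was run on log2(TPM + 1), a scale that understates changes of low genes, two-sided, without a block. Exact two-sided permutation tests compared TPM means over 70 assignments. The fit was tested on simulated data. The members and lists were chosen with earlier results of these data known. Named genes are the 8 members, the paralogs, the 3 tested genes of each other list with the smallest limma p, and the 2 genes most like each member, unnamed models skipped. Csf3r, Nos2, Il4, Il13, Tyk2 and Klf2's levels were added after values were seen. Alternatives covered pseudocounts (0.1 and 5), filters, median-of-ratios and quantile scaling, a replicate block, library weights and leaving out libraries; removal of a trend with transcript length and GC content was chosen after seeing the data. One gene of the monocyte marker list is not reported here and was left out of its sums.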

Additional observations from a re-analysis of the deposited data

Results flagged for a closer look

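In groups of 4 libraries, a library was picked out where its gap to the nearest other library exceeded the share of the group's range set by Dixon's test for 4 samples, a limit that chance passes in about 1 of 20 groups. Of 62 gene and group pairs checked, 7 passed. Arg1 in control 4 (87.46 TPM) and Tgm2 in control 4 (70.53 TPM) stood far above the other 3 control libraries, and monocyte marker RNA was also highest in control 4. Rxra stood far above the rest of its group in LOY 4 (16.76 TPM) and in control 1 (8.579 TPM). Abcg1 was far below the other LOY libraries in LOY 1 (19.57 TPM), where F13a1 was far above them (833.3 TPM). Lpl was far above the other control libraries in control 2 (409.6 TPM).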

How the results depend on the processing

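Over 19 alternative settings the median log2 fold change of the 8 genes stayed below 0, at -0.40 to -0.18. The number of genes of all past the adjusted threshold, 0 in the reported fit, was 3103 with library weights, 566 without both control 1 and LOY 2, and 0 to 1805 with 1 library left out (1805 without control 1, 5 without LOY 2 and 1 without control 4). The number of the 8 genes at an unadjusted p under 0.05, 1 in the reported fit, was 0 with no filter on low values, 0 with the length and GC trend taken out (chosen after seeing the data), 0 without both control 1 and LOY 2, 2 under median-of-ratios scaling, 2 with library weights and 0 to 3 with 1 library left out (3 without control 4). Mgl2 had an unadjusted p under 0.05 in 10 of the 19 settings, and under quantile scaling the 1 gene past it was Pparg in its place. The cause of these shifts was not tested.

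Signs turned for Arg1 with library weights (0.57) and between -0.73 and 0.41 with 1 library left out, and for Il10 under quantile scaling (-0.024) and without both control 1 and LOY 2 (-0.036). They turned for Sms under median-of-ratios (-0.019) and quantile scaling (-0.13) and with length and GC taken out (-0.051), for Irf5 under median-of-ratios scaling (-0.018), for Chil1 with library weights (0.089) and for Tgm1 under quantile scaling (-0.028) and with length and GC taken out (-0.007). Ppard, at 0.00, was -0.005 with a pseudocount of 0.1, -0.13 under median-of-ratios and -0.23 under quantile scaling, -0.059 with library weights, -0.29 with length and GC taken out and -0.14 to 0.12 with 1 library left out.

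With the replicate block, 0 genes passed the adjusted threshold, 1 of the 8 had an unadjusted p under 0.05 and their median was -0.22. Among the genes named, Mrc1 and F13a1 passed an unadjusted p of 0.05 with the block and not in the reported fit, both at a limma adjusted p of 0.212. Mrc1 also passed it with single libraries left out, as given above. Libraries of the same number did not deviate together (correlations -0.03, -0.152, 0.039 and -0.072), and 0 LOY libraries were most like the control library of their own number. Whether libraries of the same number were handled together cannot be told from these correlations. The depth of single libraries is unknown, which leaves the counting error of low genes such as Il10 in each library unmeasured. The median 95% interval over all genes reached 0.41 to either side on the log2 scale.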
